A study of Mus musculus with 3 samples.

Results

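Red cells keep their shape through a membrane skeleton, and 8 genes of that membrane and skeleton were followed here among the 26970 genes of the deposited table. They are *Slc4a1*, *Sptb*, *Ank1*, *Epb42*, *Epb41*, *Rhag*, *Rhd* and *Kel*, found by their symbols, each in 1 row. The 8 genes were chosen from red cell biology after earlier results of these data were known, in which *Slc4a1* and other erythroid genes stood high in both mutant libraries. Their levels in the mutant libraries against wild type are therefore a description, and no p-value is attached to them.

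RNA was sequenced from mandibular condyles, the jaw side of the temporomandibular joint, dissected with cartilage and subchondral bone attached. There was 1 library each from wild-type (WT, *Dspp* +/+), heterozygous (*Dspp*+/-) and homozygous null (*Dspp*-/-) mice, all at 4 months of age and on a C57BL/6 background. The knockout is global, so every cell of the mutant mice carries it, blood-forming cells included. Heterozygotes came from a cross of null with wild-type mice. The WT and *Dspp*+/- libraries were each made from pooled tissue of 3 animals, and the number behind the *Dspp*-/- library is not given in the sources used here. With 1 library per genotype no test between genotypes could be made, and each difference below is one between single libraries. Levels are the authors' FPKM, fragments scaled to gene length and to the size of the library, which allow genes of different length to be compared. The libraries held 20241576 (WT), 23613621 (*Dspp*+/-) and 22253158 (*Dspp*-/-) fragments, as recovered from the values. Intervals are 95% exact intervals for counting error only and leave out the spread between mice.

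The libraries also differed in other ways. The share of mitochondrial genes in the total FPKM was 25.0% for WT, against 36.9% and 37.3% for the heterozygous and null libraries. *Xist*, the RNA of the inactive X chromosome of female cells, was counted with 2 fragments in the WT library against 12084 and 10563 in the heterozygous and null libraries. The part of either in the results below was not tested. *Dspp* was not analysed here, which leaves the genotype labels unchecked by it.

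The membrane of the red cell is held by a net of spectrin under its inner face. Spectrin is built of long paired chains, and *Sptb* encodes the beta chain. It is tied to the membrane in vertical links, where ankyrin (*Ank1*) joins beta spectrin to the anion exchanger of *Slc4a1*, with the product of *Epb42* at the same complex and the Rh proteins of *Rhag* and *Rhd* beside it. At the junctions of the net, the product of *Epb41* holds spectrin to short actin filaments, and the Kell glycoprotein of *Kel* sits in the membrane there with its partner XK. Mutations in several of these genes cause hereditary spherocytosis or elliptocytosis. Red cell precursors make these proteins in the bone marrow, which fills the spaces of subchondral bone, and mature mouse red cells have no nucleus. *Sptb* and *Ank1* are also used in skeletal muscle and brain, and *Epb41* in many cell types.

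Promoter sequences, from 250 bases before to 50 bases after the gene start, are shown for the 4 genes that were lowest in WT and many times higher in both mutant libraries, with the letters that the erythroid factor GATA1 is known to bind in capitals. They are RefSeq sequences of GRCm38.p6, read 5′ to 3′ on the strand of the gene. *Epb42* is at chr2:121036828-121037127 on the minus strand, *Rhag* at chr17:40810899-40811198 on the plus strand, *Rhd* at chr4:134864286-134864585 on the plus strand and *Kel* at chr6:41704276-41704575 on the minus strand. On both strands, the motif AGATAA was searched, then the form ending in G, which is AGATAG, and the same pair with T as the opening letter, which gives TGATAA along with TGATAG. No matches in these promoters overlap.
Epb42: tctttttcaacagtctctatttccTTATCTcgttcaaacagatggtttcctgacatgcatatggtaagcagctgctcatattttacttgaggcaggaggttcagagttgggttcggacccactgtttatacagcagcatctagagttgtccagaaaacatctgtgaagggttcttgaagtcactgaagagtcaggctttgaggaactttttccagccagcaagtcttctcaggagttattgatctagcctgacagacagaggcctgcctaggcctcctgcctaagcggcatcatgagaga
Rhag: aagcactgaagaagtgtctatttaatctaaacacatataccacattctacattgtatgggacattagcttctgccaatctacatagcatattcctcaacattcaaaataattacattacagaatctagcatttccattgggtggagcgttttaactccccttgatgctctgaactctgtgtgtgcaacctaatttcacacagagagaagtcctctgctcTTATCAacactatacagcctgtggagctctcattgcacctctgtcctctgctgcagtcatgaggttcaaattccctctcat
Rhd: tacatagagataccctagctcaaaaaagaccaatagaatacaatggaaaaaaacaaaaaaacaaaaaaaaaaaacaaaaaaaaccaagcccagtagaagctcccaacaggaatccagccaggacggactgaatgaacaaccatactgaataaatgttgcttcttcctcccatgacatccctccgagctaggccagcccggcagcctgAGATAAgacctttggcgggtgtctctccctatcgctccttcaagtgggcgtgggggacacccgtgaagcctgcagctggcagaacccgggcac
Kel: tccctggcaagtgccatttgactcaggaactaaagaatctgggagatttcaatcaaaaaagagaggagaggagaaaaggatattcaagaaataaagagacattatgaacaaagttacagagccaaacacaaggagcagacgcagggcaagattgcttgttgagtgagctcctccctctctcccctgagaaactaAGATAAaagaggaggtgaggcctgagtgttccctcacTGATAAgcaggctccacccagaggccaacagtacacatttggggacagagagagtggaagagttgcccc
*Epb42* has 1 match, starting 226 bases before the gene start. *Rhag* has 1 at 31 bases and *Rhd* 1 at 43 bases before the start, while *Kel* has 2, at 56 and 19 bases before it. Of the 8 members, 6 had a promoter in the table, with 8 sequences in all because *Epb41* has 3 starts. A match was present in 7 of these 8 sequences, and 29.8% of all 32851 promoters in the table hold one. *Sptb* has its match just after the start, and 1 of the 3 starts of *Epb41* has none. The letters CCNCNCCC, which factors of the KLF family are known to bind, were searched on both strands, where overlapping matches counted once per sequence, and were present in 4 of the 8 sequences, those of *Sptb*, *Rhd* and 2 starts of *Epb41*, against 49.5% of all promoters. These are matches of letters and not measured binding sites. *Slc4a1* and *Ank1* had no entry.

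In WT, the 8 genes fell into 2 sets by level. *Sptb*, *Ank1* and *Epb41* made up 92.5% of the summed FPKM of the 8 genes. The other 5, *Slc4a1*, *Epb42*, *Rhag*, *Rhd* and *Kel*, had between 3 and 100 fragments each in WT. In both mutant libraries those 5 genes were 20.8-fold to 107-fold higher than in WT, while *Sptb*, *Ank1* and *Epb41* were 1.29-fold to 2.19-fold higher. The sets were drawn from the WT levels and the folds use the same WT library, so the folds are not independent of the split. The share of *Sptb*, *Ank1* and *Epb41* was 30.8% in *Dspp*+/- and 30.3% in *Dspp*-/-. In bulk tissue, more cells of a type and more RNA per cell cannot be told apart.

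**Figure D1:**
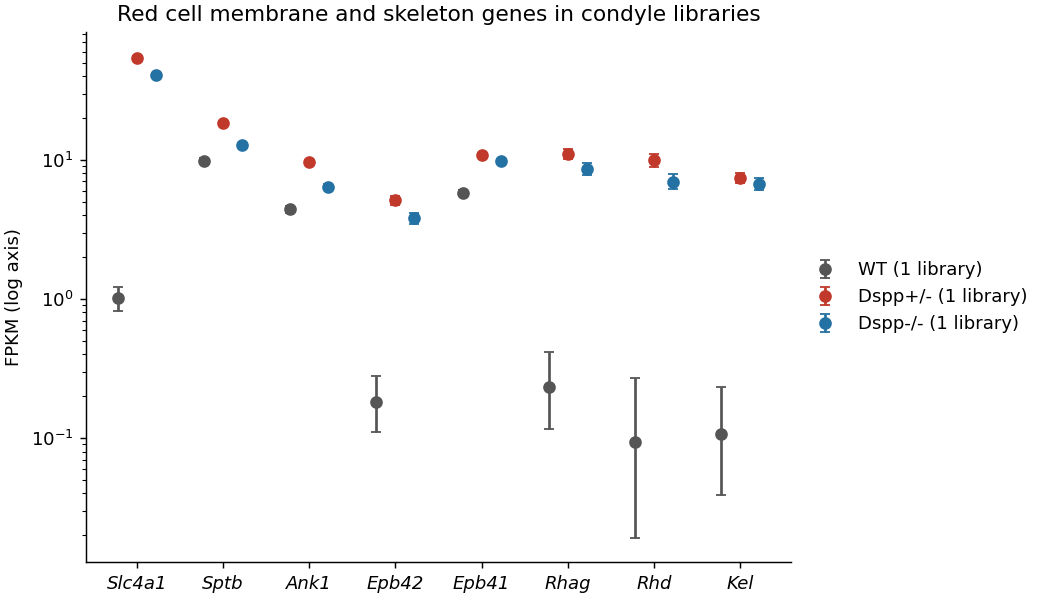
FPKM of the 8 genes on a log axis in the WT, *Dspp*+/- and *Dspp*-/- libraries, 1 point per library, with 95% exact Poisson intervals for counting error. The WT points of *Epb42*, *Rhag*, *Rhd* and *Kel* lie under 1 FPKM, and for each gene both mutant points lie above that of WT.

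The anion exchanger *Slc4a1* exchanges chloride for bicarbonate and is the most abundant membrane protein of the red cell. Its gene (ENSMUSG00000006574) lies on chromosome 11 from 102239650 to 102257029 on the minus strand, by the positions of the authors' table, for which the submitters' processing notes list only a human build, hg38, so that the mouse build is not known here. *Slc4a1* stood at 1.01 FPKM in the WT library (interval 0.822 to 1.23), at 54.2 in *Dspp*+/- (52.9 to 55.6) and at 40.5 in *Dspp*-/- (39.3 to 41.7). Both mutant libraries were thus far above WT, and the level went from the fourth to the first among the 8 genes. Against WT, it was 53.7-fold higher in *Dspp*+/- (44.0 to 66.1) and 40.1-fold higher in *Dspp*-/- (32.9 to 49.4). On the log2(FPKM + 1) scale, its ratio of 4.78 in *Dspp*+/- ranked 4 among the 13026 genes whose mean reached 1 FPKM, and its ratio of 4.37 in *Dspp*-/- ranked 3. Of the FPKM of all 8 genes, it held 4.65% in WT and 42.8% and 42.3% in the heterozygous and null libraries.

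*Epb42* (ENSMUSG00000023216, chromosome 2 from 120848372 to 120867553) encodes a relative of the transglutaminases that has no enzyme activity and binds the anion exchanger and ankyrin. Its level was 0.182 FPKM in WT, from 20 fragments, against 5.14 in *Dspp*+/- and 3.80 in *Dspp*-/-, the lowest of the 8 genes in both mutant libraries. It was 28.2-fold higher in *Dspp*+/- than in WT (18.1 to 46.4) and 20.8-fold higher in *Dspp*-/- (13.3 to 34.4). Relative to *Slc4a1*, whose protein it binds, its level was 0.181 in WT, 0.0948 in *Dspp*+/- and 0.0939 in *Dspp*-/-. This ratio was thus close in the mutant libraries and rests on 20 and 100 fragments in WT.

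*Rhag* and *Rhd* encode related Rh proteins, of which the first is thought to conduct ammonia or carbon dioxide and is needed for the second to reach the surface. *Rhag* (ENSMUSG00000023926, chromosome 17 from 41122017 to 41151645) was at 0.232 FPKM in WT, from 11 fragments, and at 10.99 and 8.63 FPKM in the heterozygous and null libraries. The folds over WT were 47.3 (26.2 to 95.3) and 37.1 (20.6 to 74.9), so that both mutant libraries lay far above WT. *Rhd* (ENSMUSG00000028825, chromosome 4 from 134591847 to 134623483) was lower still in WT, at 0.0930 FPKM, with 9.91 in *Dspp*+/- and 6.99 in *Dspp*-/-. It rests on 3 fragments in WT, so its ratios of 107 in *Dspp*+/- and 75.2 in *Dspp*-/- have wide counting intervals, from 36.2 to 519 and from 25.4 to 367. In both mutant libraries, *Rhd* was close to *Rhag* per length, at 0.902 and 0.810 of its level. Relative to *Slc4a1*, *Rhag* was at 0.230 in WT, where it rests on 11 fragments, 0.203 in *Dspp*+/- and 0.213 in *Dspp*-/-.

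*Kel* (ENSMUSG00000029866, chromosome 6 from 41663264 to 41681273) encodes the Kell blood group protein, an endopeptidase that can cleave endothelin precursors. WT had 0.107 FPKM of it, from 6 fragments, *Dspp*+/- 7.42 and *Dspp*-/- 6.74. The fold over WT was 69.4 in *Dspp*+/- (31.7 to 190) and 63.1 in *Dspp*-/- (28.7 to 173). *Kel* was the 1 member whose 2 mutant libraries did not differ beyond counting error, as the fold of *Dspp*+/- over *Dspp*-/- was 1.10 (0.964 to 1.26). *Xk*, the gene of the protein that Kell is joined to, was at 1.75 FPKM in WT and at 4.197 and 4.13 in the heterozygous and null libraries. *Kel* was thus at 0.0610 of the level of *Xk* in WT and at 1.77 and 1.63 times its level in the mutant libraries.

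*Sptb* (ENSMUSG00000021061, chromosome 12 from 76627262 to 76757321), the beta spectrin gene, had the highest level of the 8 genes in WT. WT had 9.88 FPKM of it (9.49 to 10.3), *Dspp*+/- 18.6 (18.1 to 19.1) and *Dspp*-/- 12.7 (12.3 to 13.2). The 3 levels are apart by more than counting error, with *Dspp*-/- nearer to WT. The folds over WT were 1.88 (1.79 to 1.97) in *Dspp*+/- and 1.29 (1.22 to 1.36) in *Dspp*-/-.

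*Ank1* (ENSMUSG00000031543, chromosome 8 from 23464860 to 23640513) encodes ankyrin, the adaptor between spectrin and the anion exchanger. Its level was 4.42 FPKM in WT (4.17 to 4.67), 9.655 in *Dspp*+/- (9.32 to 10.002) and 6.42 in *Dspp*-/- (6.14 to 6.71), the same order of libraries as *Sptb*. The heterozygous library was 2.19-fold above WT (2.05 to 2.34) and the null library 1.45-fold (1.35 to 1.56). Relative to *Sptb*, the level of *Ank1* differed little among the 3 libraries, at 0.447 in WT, 0.520 in *Dspp*+/- and 0.504 in *Dspp*-/-. In GENCODE M21, *Gm15816*, which runs on the opposite strand, covers 6.37% of the *Ank1* exons, and the counting is not stated to use strand.

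*Epb41* (ENSMUSG00000028906, chromosome 4 from 131650724 to 131802632) encodes the protein that strengthens the contact of spectrin and actin. WT had 5.79 FPKM of it (5.53 to 6.06), *Dspp*+/- 10.8 (10.4 to 11.1) and *Dspp*-/- 9.84 (9.51 to 10.2). The mutant libraries lie close to each other and above WT, with folds of 1.86 (1.76 to 1.97) and 1.70 (1.61 to 1.80). Its fragments were recovered to within 0.195 of a whole number and are approximate. For the other 7 genes the largest distance from a whole number was 0.00133.

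On the log2(FPKM + 1) scale, 5 of the 8 genes were at least 2-fold higher in *Dspp*+/- than in WT, where 4.88% of all 13026 genes compared were. These 5 are the ones with 100 or fewer fragments in WT, and *Ank1*, at a log2 ratio of 0.98, lay just under the threshold. In *Dspp*-/- the same 5 genes passed, where 4.05% of all genes did. The median log2 ratio of the 8 genes was 2.65 in *Dspp*+/- and 2.41 in *Dspp*-/-, against medians over all genes of 0.058 and 0.0070. All 8 genes passed the filter of a mean of 1 FPKM, but *Epb42*, *Rhag*, *Rhd* and *Kel* passed it only through their levels in the mutant libraries, and the counts are not support for a difference. Both comparisons use the same WT library.

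**Figure D2:**
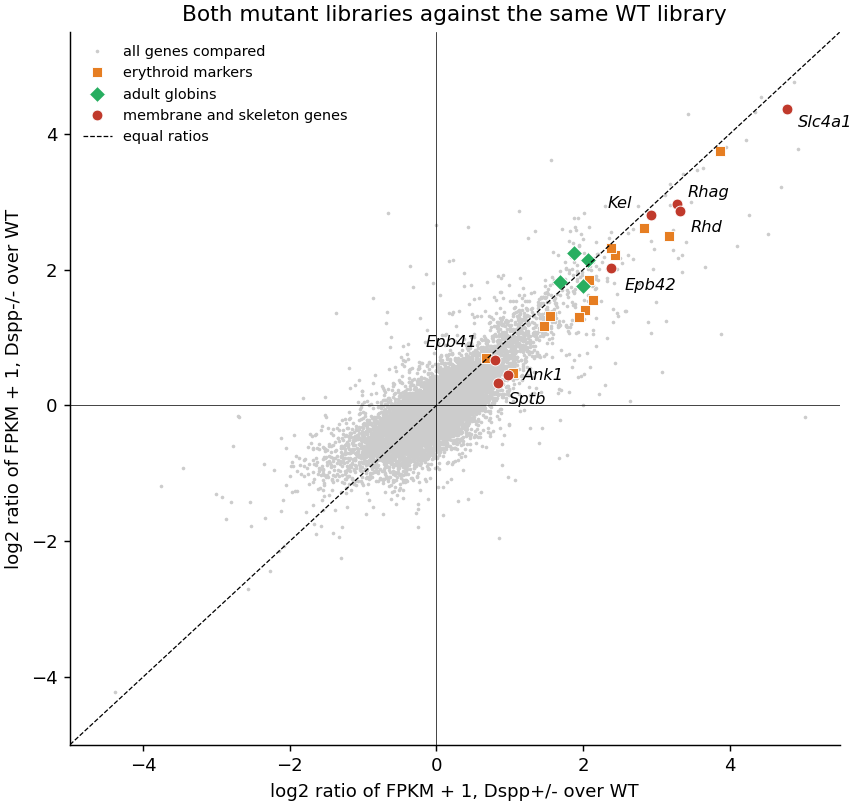
Log2 ratio of FPKM + 1 to WT in *Dspp*+/- (x axis) and *Dspp*-/- (y axis), 1 point for each of the 13026 genes compared, with the 8 membrane and skeleton genes, the adult globins and the erythroid markers coloured. Each of the 8 genes lies above 0 on both axes and below the dashed line of equal ratios, and *Slc4a1* is farthest out at 4.78 and 4.37.

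The comparison of the mutant libraries with each other does not use WT. All 8 genes were higher in *Dspp*+/- than in *Dspp*-/-, from 1.10-fold for *Epb41* and *Kel* to 1.504-fold for *Ank1*, with a median log2 ratio of 0.38 against 0.037 over all genes. For 7 of the 8 genes the counting interval of the fold stayed above 1, and *Kel* was the exception. None reached 2-fold, as did 0.798% of all genes. *Sptb* and *Ank1* differed most, with folds of 1.46 (1.40 to 1.52) and 1.504 (1.42 to 1.59). *Rhd* followed with 1.42 (1.20 to 1.67), *Epb42* with 1.35 (1.20 to 1.53), *Slc4a1* with 1.34 (1.29 to 1.39) and *Rhag* with 1.27 (1.13 to 1.44). The interval of *Epb41* was 1.05 to 1.15. Intervals of neighbours in this order overlap.

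Expressed as a difference in FPKM from WT, *Slc4a1* was 53.2 higher in *Dspp*+/- and 39.5 higher in *Dspp*-/-. In *Dspp*+/-, the differences of the other 7 genes were within a narrow band, from 4.95 for *Epb42* to 10.8 for *Rhag*, although their folds ranged from 1.86 to 107. *Sptb* and *Ank1*, which had the smallest folds along with *Epb41*, differed from WT by 8.67 and 5.24 FPKM. In *Dspp*-/-, these 2 differences were 2.84 and 2.003, the smallest of the 8.

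The adult globins serve as a measure of red cell RNA in the same libraries. They summed to 895 FPKM in WT and to 3624 and 3524 FPKM in the heterozygous and null libraries, which is 4.05 and 3.94 times WT. All 4 globin genes were higher in both mutant libraries, with *Hbb-bs* at 425, 1794 and 1886 FPKM and *Hba-a1* at 395, 1577 and 1344. *Hba-a2* had 51.6, 168 and 185 FPKM, and it is nearly identical to *Hba-a1*, so fragments could be split between the pair. Per 1000 FPKM of globin, *Slc4a1* was at 1.13 in WT, 15.0 in *Dspp*+/- and 11.5 in *Dspp*-/-. All 5 genes that were low in WT were higher relative to globin in *Dspp*+/-, from 6.95 times for *Epb42* to 26.3 times for *Rhd*, and from 5.29 to 19.1 times in *Dspp*-/-. *Sptb*, *Ank1* and *Epb41* were lower relative to globin, at 0.463, 0.540 and 0.459 of WT in *Dspp*+/- and at 0.327, 0.369 and 0.431 in *Dspp*-/-. Such ratios within a library do not depend on how the libraries were scaled, but they depend on the reference. The median log2 ratio of the 8 genes relative to the globins was 3.17 in *Dspp*+/- and 2.82 in *Dspp*-/-, and relative to the median of the erythroid markers it was 0.40 and 0.49.

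**Figure D3:**
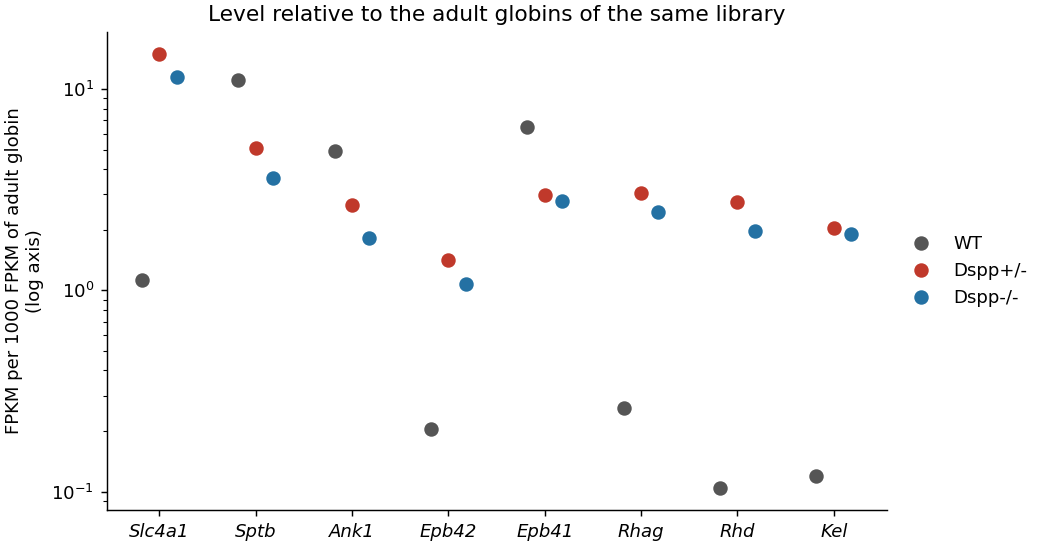
FPKM of each gene per 1000 FPKM of the 4 adult globin genes in the same library, on a log axis, 1 point per library. The WT point lies lowest for *Slc4a1*, *Epb42*, *Rhag*, *Rhd* and *Kel* and highest for *Sptb*, *Ank1* and *Epb41*, sets that were drawn from the WT levels.

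Erythroid genes outside the membrane are described beside them. Of 13 erythroid markers, among them transcription factors, the erythropoietin receptor and heme genes, 12 were at least 2-fold higher in *Dspp*+/- and 11 in *Dspp*-/-, with median log2 ratios of 2.08 and 1.56, where 4.88% and 4.05% of all genes were. Of the 13, 8 had under 1 FPKM in WT and passed the filter only through the mutant libraries, so this count is no support for a difference. *Hemgn*, a nuclear protein of blood precursors, had the largest ratio and went from 3 fragments in WT to 857 in *Dspp*+/-. *Alas2*, the first enzyme of heme synthesis in red cells, had 7.48, 43.2 and 41.3 FPKM, and *Slc25a37*, which brings iron into mitochondria, 6.63, 31.2 and 26.4. *Tmcc2* had 11.2, 24.0 and 15.9 FPKM, and *Fech*, the last enzyme of heme synthesis, had the smallest ratio, with 7.05, 11.9 and 12.0 FPKM.

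Most of the other proteins of the skeleton and its anchors differed less. Of 14 such genes, 13 were analysed here and 12 passed the filter. Of the 13, 4 had under 1 FPKM in WT and could pass it only through the mutant libraries. All 12 were higher in *Dspp*+/-, 3 of them by at least 2-fold, where 4.88% of all genes were. In *Dspp*-/-, 3 of the 12 were past 2-fold as well, where 4.05% of all genes were. The median log2 ratio of the 12 was 0.54 in *Dspp*+/- and 0.57 in *Dspp*-/-. The most abundant of them are used in nearly all cells: *Actb* had 277, 344 and 348 FPKM, *Cd47* 20.8, 28.1 and 30.8 FPKM and *Tpm3* 19.5, 23.9 and 23.3 FPKM. *Mpp1* had the smallest ratio, with 7.34, 8.73 and 9.68 FPKM.

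Among 15 other channels, transporters and surface antigens of the red cell membrane, 13 passed the filter. Of these, 4 were at least 2-fold higher in *Dspp*+/- and 3 in *Dspp*-/-, and none was 2-fold lower. Their median log2 ratio was 0.27 in *Dspp*+/- and 0.15 in *Dspp*-/-, with 7 higher and 6 lower in *Dspp*+/-. Where the mean had to reach 5 FPKM, the first median turned to -0.16, and without globin, immunoglobulin and muscle genes in the scaling the second turned to -0.018. *Ermap*, an adhesion protein of erythroid cells, had the largest ratio, with 0.112, 9.11 and 7.58 FPKM. *Aqp1*, a water channel that endothelium also uses, was the most abundant, with 235, 284 and 261 FPKM. *Slc29a1*, a nucleoside transporter, had 52.2, 31.7 and 30.7 FPKM, and *Sema7a*, with the smallest ratio, 43.3, 24.2 and 28.1 FPKM.

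**Figure D4:**
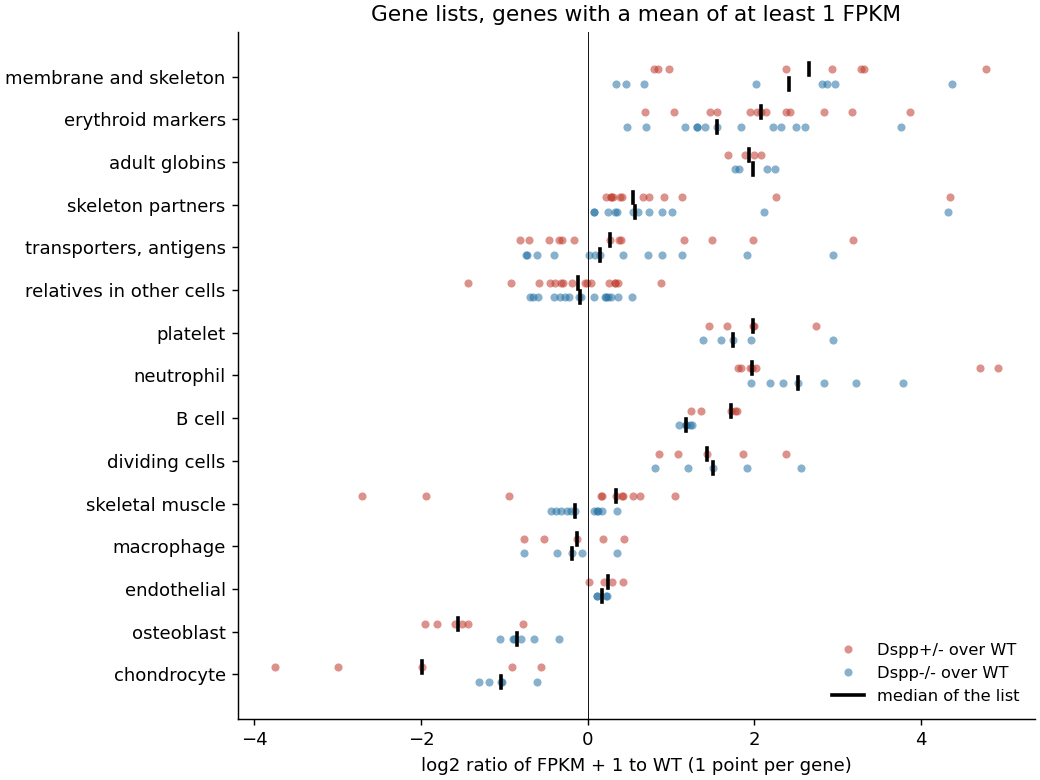
Log2 ratio of FPKM + 1 to WT for each gene of the 15 gene lists (points, *Dspp*+/- and *Dspp*-/- apart) with the median of each list (bar), for genes that passed the filter. The 8 membrane and skeleton genes have medians of 2.65 in *Dspp*+/- and 2.41 in *Dspp*-/-, where the neutrophil markers have 1.97 and 2.52, and split into a set above 2 and a set under 1.

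Most members have relatives that are better known from other cells, and these give the same protein families outside red cells. Of 27 relatives, 16 passed the filter. None was at least 2-fold higher in either mutant library, where 4.88% of all genes were in *Dspp*+/- and 4.05% in *Dspp*-/-. For 16 genes, a count of none is near those shares. In *Dspp*+/-, 6 were higher and 10 lower than in WT, with a median log2 ratio of -0.11, and in *Dspp*-/- the median was -0.094. Both medians turned to small positive values, 0.035 and 0.014, when the filter was left out. One relative, *Phex*, was at least 2-fold lower in *Dspp*+/-, where 2.86% of all genes were, and none was in *Dspp*-/-, where 1.37% were.

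*Phex*, the relative of *Kel* that regulates phosphate and mineralization from osteoblasts and osteocytes, was at 52.4 FPKM in WT, against 18.8 and 34.4 in the heterozygous and null libraries. Of the FPKM of *Kel* and its 6 relatives, *Kel* held 0.131% in WT, 13.9% in *Dspp*+/- and 10.3% in *Dspp*-/-. *Slc4a2*, the anion exchanger that osteoclasts and many other cells use, had 13.8, 6.81 and 8.14 FPKM. *Slc4a1* was at 0.0734 of its level in WT and at 7.96 and 4.97 times its level in *Dspp*+/- and *Dspp*-/-, so the order of the 2 exchangers differed between WT and both mutant libraries. *F13a1*, a transglutaminase of platelets and macrophages, had the largest ratio of the relatives in *Dspp*+/-, with 11.9, 22.8 and 17.7 FPKM, and *Ece1*, another endopeptidase, had 25.4, 25.2 and 20.0 FPKM.

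The most abundant spectrins of other cells were above *Sptb* in all 3 libraries. *Sptbn1*, the beta spectrin of most other cells, had 31.7, 40.0 and 37.7 FPKM, and *Sptan1*, the alpha chain of those cells, 23.7, 23.1 and 22.4. *Ank1* was above *Ank3*, its most abundant relative, in all 3 libraries, where *Ank3* had 1.88, 2.44 and 2.05 FPKM. *Epb41l2* had 16.1, 11.5 and 14.8 FPKM, which left *Epb41* at 0.360 of its level in WT, 0.936 in *Dspp*+/- and 0.663 in *Dspp*-/-. *Tgm2*, the transglutaminase with the highest mean over the 3 libraries, had 27.8, 22.0 and 20.7 FPKM. The Rh relatives of kidney and liver, *Rhbg* and *Rhcg*, were near the limit of detection, with at most 6 fragments for *Rhbg* in WT and none for *Rhcg*, which allows up to 3 there.

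**Figure D5:**
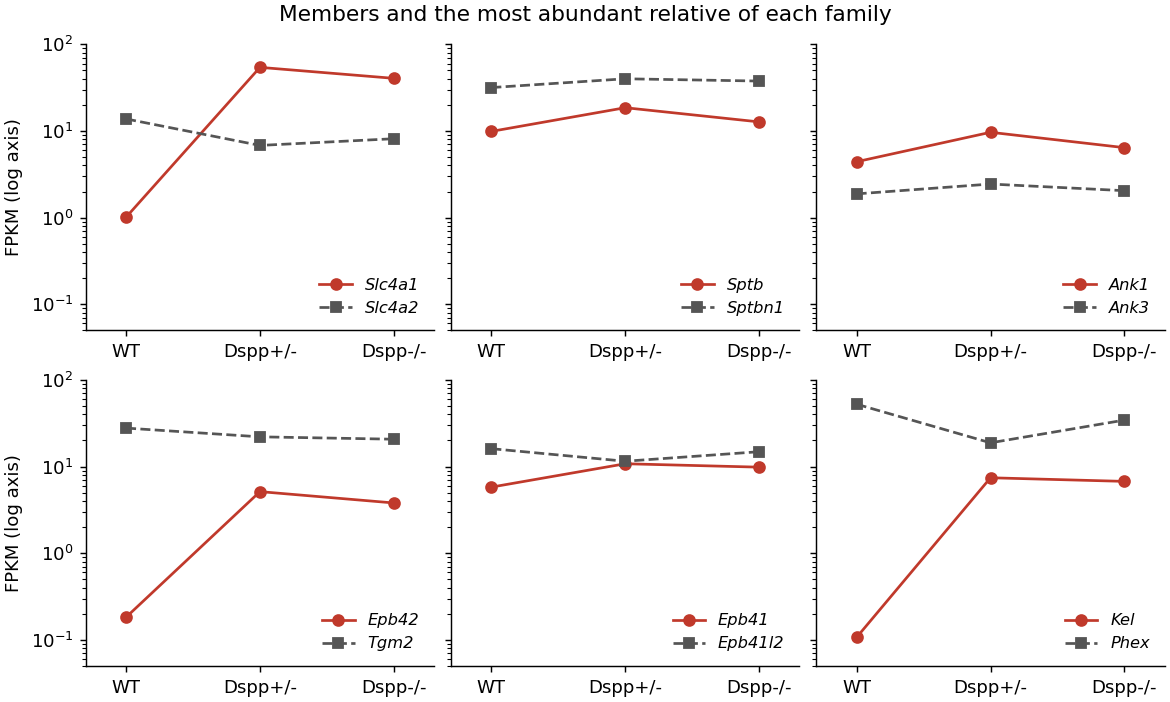
FPKM on a log axis in the 3 libraries for 6 members (red circles) and the most abundant relative of each (grey squares), with lines joining the values of 1 gene. *Slc4a1* crosses *Slc4a2* between WT and the mutant libraries, while *Sptb*, *Epb41*, *Epb42* and *Kel* stay below their relatives and *Ank1* stays above *Ank3*.

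Markers of some other cells in the condyle also differed between the libraries, some higher and some lower than in WT, and their part in the results was not tested. All 7 neutrophil markers, 5 platelet markers and 5 B cell markers were at least 2-fold higher in both mutant libraries. Of all genes, 4.88% in *Dspp*+/- and 4.05% in *Dspp*-/- were at least 2-fold higher, and 2.86% and 1.37% at least 2-fold lower. The summed levels in WT, *Dspp*+/- and *Dspp*-/- were 589, 2555 and 3453 FPKM for the neutrophil markers, 23.2, 123 and 135 for the platelet markers and 15.7, 61.1 and 42.0 for the B cell markers. Of 5 markers of dividing cells, 4 were at least 2-fold higher in both, with sums of 16.8, 62.5 and 67.1 FPKM. None of the 5 macrophage and 4 endothelial markers differed 2-fold, and the macrophage sum was 164, 134 and 135 FPKM and the endothelial sum 104, 123 and 117. The osteoblast markers, 6 in all, summed to 8995, 2432 and 4968 FPKM, with 5 at least 2-fold lower in *Dspp*+/- and 1 in *Dspp*-/-. The chondrocyte markers summed to 1564, 449 and 690 FPKM, and of the 5 that passed the filter 3 were at least 2-fold lower in *Dspp*+/- and 4 in *Dspp*-/-. *Matn1* of this list was at 0 in *Dspp*+/- and under the floor of 3 fragments in WT. No other marker of these lists was at 0 in any library.

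Skeletal muscle is the tissue to set beside *Sptb* and *Ank1*, since it uses both genes. All 11 muscle markers were present in every library, and they summed to 12525 FPKM in WT and to 16747 and 13653 FPKM in the heterozygous and null libraries, or 1.34 and 1.09 times WT. *Acta1*, the most abundant, had 5609, 8162 and 7150 FPKM, *Tnnt3* 1450, 1950 and 1218, and *Atp2a1* 1146, 1767 and 1297. *Myh2* had the largest ratio in *Dspp*+/-, with 342, 706 and 359 FPKM, and *Myh4* the smallest, with 124, 18.2 and 111. The sum is led by *Acta1*, and 6 of the 11 markers were below WT in *Dspp*-/-, where the median log2 ratio was -0.15, against 0.34 in *Dspp*+/-. All 8 membrane and skeleton genes, *Sptb* and *Ank1* among them, were highest in *Dspp*+/- and lowest in WT. The part of muscle in their levels was not tested.

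The genes whose 2 ratios to WT lay nearest to those of *Slc4a1* were found by Euclidean distance over the log2 ratios of the 2 mutant libraries, which share WT, among the 13026 genes compared. Among the 10 nearest, at distances of 0.399 to 1.44, were *Ear1*, *Xist*, *Elane*, *Prg2*, *Ear6*, *Hemgn*, *Mpo*, *Igkv3-4* and *Car1*. *Hemgn* and *Car1* are erythroid genes. *Ear1*, *Ear6* and *Prg2* are known from eosinophils and *Elane* and *Mpo* from neutrophil precursors. *Xist* was at 2 fragments in WT and *Igkv3-4*, an immunoglobulin segment, is listed at 0 there. Among the 10 nearest to the median pair of the 8 genes were *Chil3*, *Car2*, *Ighv1-52*, *Trim10*, *Cldn13*, *Alas2*, *Csf3r*, *Nfe2* and *Cxcr2*, at 0.126 to 0.296. Of these, *Trim10*, *Alas2* and *Nfe2* belong to the list of 13 erythroid markers. That list is not complete, as it lacks *Car1*, so genes outside it may be erythroid too. *Chil3* was the nearest of all.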

How the data were processed

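Condyle RNA of 3 genotypes was sequenced as poly(A)-selected libraries in read pairs of 150 bases, 1 library per genotype. The labels speak of triplicates, yet each genotype has a single column, read as 1 pooled library. The authors deposited 1 table of FPKM values for 26970 genes, whose unit the header does not name. The values were read as FPKM because, multiplied by merged exon length in GENCODE M21, they are whole multiples of 1 constant per library. The submitters' processing notes list FastQC 0.11.5, HISAT2 2.1.0, StringTie 1.3.3b, DESeq 1.28.0 and the human build hg38, with no role given. The annotation and filters are not given in the sources used here. Only 578 of 26641 genes matched by identifier have the start and end of GENCODE M21, so positions of the table were not mixed with GRCm38.

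Fragments per gene were recovered from the values, and 98.6% of the genes with 1 to 100 fragments came out within 0.05 of a whole number in WT, 98.7% in *Dspp*+/- and 98.6% in *Dspp*-/-. Folds are ratios of FPKM with 95% Clopper-Pearson intervals, and levels have exact Poisson intervals. Without molecular identifiers, both cover counting error only. The 13026 genes whose mean reached 1 FPKM were compared as log2 ratios of FPKM + 1, which understates the change of low genes, and a 2-fold threshold was counted. The 3 libraries allow no test. The recovery of fragments was tested on simulated data. At most 3.21% of the 100-base stretches of a member, *Ank1*, also occur in another gene.

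The members and the 14 other lists were chosen with earlier results of these data known. Genes named are the members and, from each red cell, family or muscle list, the 3 with the highest mean and those with the highest and lowest ratio in *Dspp*+/-, the most abundant relative in each family, and the 10 nearest in pattern, of which some are not reported here. The same rule covers the cell marker lists, which are given by their sums. *Xk*, *Sptan1* and *Matn1* were named after their values were seen. Alternatives were 2 pseudocounts, 2 filters, 4 scalings, 2 thresholds and 2 erythroid references. *Icam4* and *Dspp* were not analysed here. Python 3.11.15 was used with pandas 2.3.3, matplotlib 3.10.9, scipy 1.17.1 and numpy 2.4.6.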

Additional observations from a re-analysis of the deposited data

Results flagged for a closer look

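The skeletal muscle markers are given here because their median log2 ratio to WT had opposite signs in the mutant libraries, 0.34 in *Dspp*+/- and -0.15 in *Dspp*-/-. The difference was not tested, since each genotype has 1 library. The 8 membrane and skeleton genes had the same sign in both.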

How the results depend on the processing

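With 1 library per genotype, leaving out a replicate was not possible. No paired analysis was possible because each genotype has 1 library and the labels give no replicate numbers. All 186 log2 ratios of single members recomputed under other pseudocounts, filters and scalings kept their sign, with 0 reversed. A pseudocount or a filter cannot change the sign of such a ratio, so only the 4 scalings could have reversed one. The median of the 8 genes moved with the pseudocount, by construction: the values of 2.65 and 2.41 in the heterozygous and null libraries became 4.64 and 4.25 when 0.1 was added in place of 1, and 1.13 and 0.98 when 5 was added. Where the mean had to reach 5 FPKM, 6 members were left, and 3 of them were at least 2-fold higher in each mutant library. With the threshold lowered to 1.5-fold, all 8 members passed in *Dspp*+/-, whereas 6 did so in the null library. The share of all genes is not given here for this threshold or for the filter of 5 FPKM. These counts therefore have no background to be set against. Relative to the median of the erythroid markers in place of the summed globins, the median log2 ratio of the members was 0.40 in place of 3.17 in *Dspp*+/- and 0.49 in place of 2.82 in *Dspp*-/-. Among the lists, the transporter median turned to -0.16 in *Dspp*+/- under the filter of 5 FPKM and to -0.018 in *Dspp*-/- when scaled without globin, immunoglobulin and muscle genes, and the medians of the relatives turned to 0.035 and 0.014 with no filter. Depth limits the WT values most, since *Rhd*, *Kel*, *Rhag* and *Epb42* rest on 3, 6, 11 and 20 fragments there.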
